A study of Sus scrofa with 24 samples.

Results

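The 8 enzymes described here carry long- and medium-chain fatty acids through mitochondrial oxidation: the carnitine palmitoyltransferases CPT1A and CPT2, the acyl-CoA dehydrogenases ACADM, ACADL and ACADVL, the trifunctional protein subunits HADHA and HADHB, and the hydroxyacyl-CoA dehydrogenase HADH. Every array probe that is not a control and that carries a name of one of these genes was taken, which gave 31 of 43603 probes for 8 of 5509 named genes. CPT1A had 7 probes, ACADM 7, ACADL 6, HADHA 3, HADHB 3, CPT2 2, HADH 2 and ACADVL 1, and all 31 passed the filter on dim signal, as did 29665 probes in all. The HADHB probes stand on the array under the older symbol LCTHIO, and 1 CPT1A probe was recognised by its description alone. None of the 8 makes ketone bodies, so the ketogenic genes are given as a separate list.

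The samples were livers of 24 pigs at 115 kg body weight, 1 array per pig and 8 pigs per group. Residual feed intake (RFI) is the part of feed intake that an animal's growth and upkeep do not account for, and the pigs came from lines with low or high RFI. The groups were high RFI pigs given only as much feed as the low RFI line eats (restricted high RFI), high RFI pigs fed ad libitum, and low RFI pigs fed ad libitum. Age and sex of the pigs are not given in the sources used here.

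In the liver, fatty acids are joined to coenzyme A, passed to carnitine by CPT1A on the outer mitochondrial membrane, and returned to coenzyme A by CPT2 on the inner membrane. Each turn of beta-oxidation then begins with an acyl-CoA dehydrogenase that fits the chain length and ends with acetyl-CoA, and the middle and last steps on long chains are done by the trifunctional protein. CPT1A is blocked by malonyl-CoA, the first product of fatty acid synthesis, which ties oxidation to feeding.

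A level is the log2 signal of a probe relative to the 75th percentile of its array, and a difference is a difference of group means of such levels. Levels are compared between pigs within a probe and not between probes. On the arrays, 63.2% to 72.7% of spots were well above background and the 75th percentile of the signal was 364.4 to 470.3 intensity units. All 9 measured hepatocyte markers were well above background on all 24 arrays. With 8 arrays in each group, their number sets the precision of every value. Because bulk liver was measured, fewer cells of a type and less RNA per cell cannot be told apart.

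The probes are 60 bases long, and 25 of the 31 have a forward reading frame without a stop. The following are shown because the results turn on how far probes of the same gene agree. In the HADHB pair the capitals mark the run of 57 bases that both probes share, and the other probes shown share no such stretch. Of all 65 pairs of probes for the same enzyme, 3 share a run of 30 bases or more.
CPT1A A_72_P443908: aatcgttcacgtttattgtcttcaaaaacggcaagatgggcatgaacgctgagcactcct
CPT1A A_72_P479795: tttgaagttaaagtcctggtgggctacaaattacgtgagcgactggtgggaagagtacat
ACADM A_72_P653622: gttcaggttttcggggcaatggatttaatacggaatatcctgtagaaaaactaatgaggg
HADHA A_72_P713613: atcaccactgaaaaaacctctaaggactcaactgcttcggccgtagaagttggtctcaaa
HADHA A_72_P736892: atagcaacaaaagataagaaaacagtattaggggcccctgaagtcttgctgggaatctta
HADHB A_72_P223742: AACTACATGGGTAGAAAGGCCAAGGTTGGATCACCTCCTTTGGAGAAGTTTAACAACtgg
HADHB A_72_P632229: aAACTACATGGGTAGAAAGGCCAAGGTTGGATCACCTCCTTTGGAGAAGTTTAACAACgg

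None of the 31 probes passed an adjusted p of 0.05 in limma in any of the 3 comparisons of single groups. Of all probes, 0.152% passed for high against low RFI, 0% for restricted high against high RFI, and 0.276% for restricted high against low RFI. None passed the F test over the 3 groups, which 0.206% of all probes did. At an unadjusted p under 0.05, 4 of the 31 probes (12.9%) passed when high RFI pigs were set against low RFI pigs, against 9.59% of all probes. Of these, 3 were higher, against 5.09% of all probes, and 1 was lower, against 4.5%. Under restriction within the high line 2 probes (6.45%) did, against 5.31%, and both were higher, against 2.82%. With restricted high against low RFI pigs 9 probes (29%) did, against 12.7%, and all were higher, against 6.59%. Probes of the same gene measure the same RNA, so these 31 are not independent: the 9 came from ACADM (4), CPT2 (2), ACADL (2) and CPT1A (1, the probe A_72_P055181). Since that probe was recognised by its description alone, it may belong to another CPT1 gene or transcript, which was not tested.

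Taking the brightest probe of each gene as its main probe, the median difference over the 8 genes was 0.04 between high and low RFI pigs, 0.08 between restricted high and high RFI pigs, and 0.05 between restricted high and low RFI pigs. The corresponding medians over all probes kept were 0.0028, -0.0035 and 0.001. In the same order of comparisons 4, 1 and 3 of the 8 genes lay below 0, against 49.2%, 51% and 49.7% of all probes. The comparisons share groups, so their counts are not separate evidence.

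**Figure D1:**
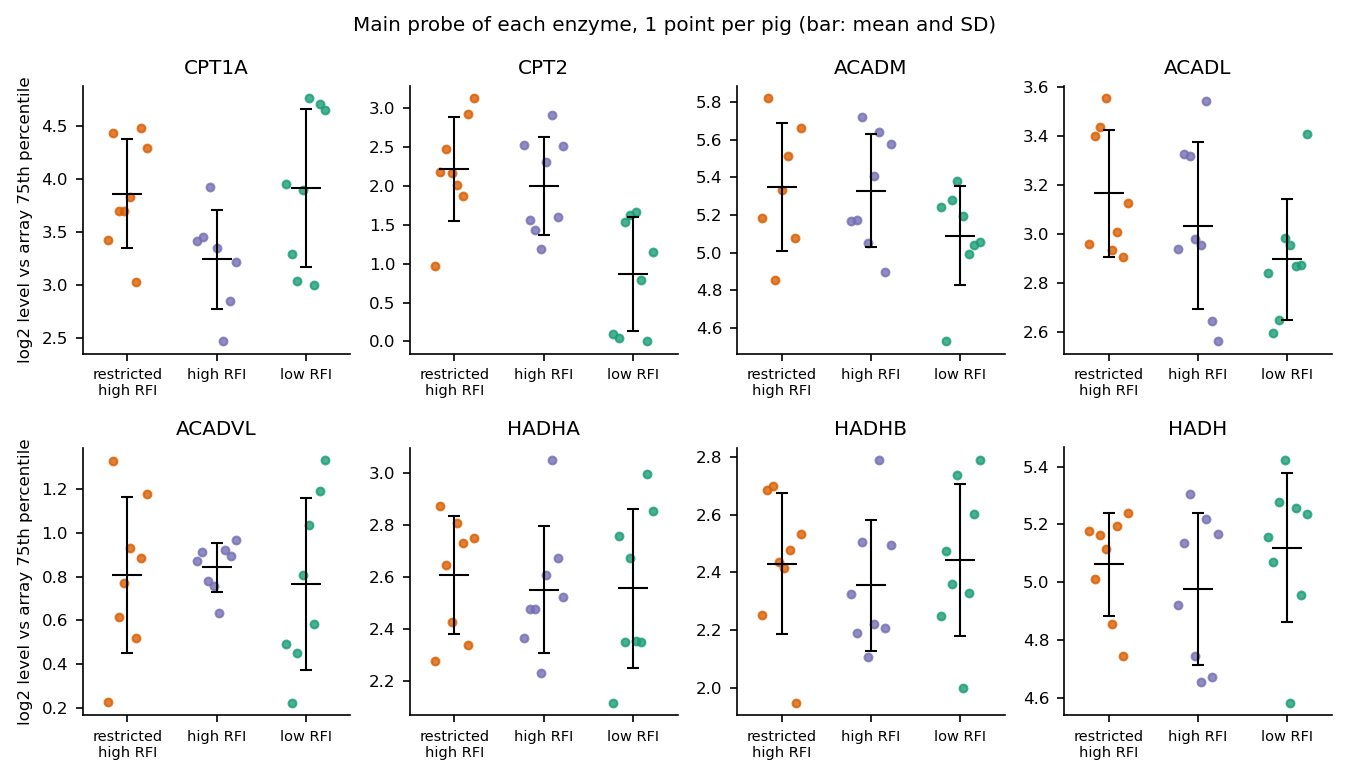
Level of the main probe of each of the 8 enzymes (y axis, log2 relative to the array's 75th percentile) in each pig, for restricted high, high and low RFI pigs from left to right; points are pigs and bars give the mean and SD. CPT2 averaged 2.22 and 2.01 in the restricted high and high RFI groups against 0.86 in low RFI pigs, and the other 7 enzymes overlapped widely between groups.

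CPT2, which rebuilds acyl-CoA inside the mitochondrion, had the largest differences among the 8 genes when the low line was compared with either group of the high line. Its main probe A_72_P026376 had a lowest, median and highest level of 0.97, 2.18 and 3.13 in restricted high RFI pigs. In high RFI pigs they were 1.19, 1.96 and 2.91, and in low RFI pigs 0.0007, 0.97 and 1.66. The groups overlapped, but all 8 restricted high and all 8 high RFI pigs lay above the low RFI mean, and 11 of these 16 lay above every low RFI pig. Low RFI pigs 1, 2, 6 and 7, which were spread over both scan days and 4 slides, lay below every pig of the high line.

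On that probe the difference was 1.14 between high and low RFI pigs (SE 0.32, 95% interval 0.48 to 1.81, 2.21-fold, limma adjusted p = 0.178). Between restricted high and low RFI pigs it was 1.36 (SE 0.32, interval 0.69 to 2.02, 2.56-fold, limma adjusted p = 0.0716). Between restricted high and high RFI pigs it was 0.21 (SE 0.32, interval -0.45 to 0.87, limma adjusted p = 0.983). Neither difference from the low line passed the threshold over all probes, although leaving out restricted pig 1, which had the lowest CPT2 level of its group, gave an adjusted p of 0.028 for restricted high against low RFI pigs. Within scan day 1 the differences of high and of restricted high from low RFI pigs were 1.41 and 1.48, and within scan day 2 they were 0.99 and 1.44.

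The other CPT2 probe, A_72_P124341, showed the same order of groups. It ran from -1.06 to 1.25 in restricted high RFI pigs (median 0.22), from -0.82 to 1.53 in high RFI pigs (median -0.02) and from -2.04 to -0.25 in low RFI pigs (median -1.02). Its differences were 1.14 between high and low RFI pigs (SE 0.36, limma adjusted p = 0.26) and 1.21 between restricted high and low RFI pigs (SE 0.36, limma adjusted p = 0.145). Across the 24 pigs both CPT2 probes correlated with r = 0.941, and they share no run of 30 bases.

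Both groups of the high line, 16 pigs, were therefore also set against the 8 low RFI pigs, a comparison chosen after the CPT2 values had been seen. CPT2 then averaged 2.11 ± 0.64 in the high line (SD, n = 16) and 0.86 ± 0.73 in the low line (SD, n = 8). The difference on the main probe was 1.25 (SE 0.28, interval 0.68 to 1.82, 2.38-fold, limma adjusted p = 0.0381), and it was the only 1 of the 31 probes to pass, against 0.573% of all probes. On the other CPT2 probe it was 1.17 (SE 0.31, limma adjusted p = 0.0823). The call depended on single pigs: over the 24 fits that each left out 1 pig the difference was 1.13 to 1.36 and its adjusted p 0.0151 to 0.0908, with 11 fits past the threshold and 13 not. It was lost without low RFI pig 1, 2, 6, 7 or 8, high RFI pig 1, 5, 6 or 8, or restricted pig 2, 3, 7 or 8. Adding slide as a block gave 1.29 (limma adjusted p = 0.0533).

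Some markers of other cells also differed between groups. The mean level of 7 stellate cell and fibroblast markers, of 10 on the list, was 0.35 to 1.13 in restricted high RFI pigs and 0.36 to 1.23 in high RFI pigs, against 0.95 to 1.62 in low RFI pigs. The mean of 3 pancreatic acinar genes, of 8 on the list, was -2.70 to -1.22 in restricted high RFI pigs and -2.92 to -0.79 in high RFI pigs, against -2.01 to -0.03 in low RFI pigs. At an unadjusted p under 0.05, restricted high against low RFI pigs had 12 of 30 stellate cell and fibroblast probes lower and 1 higher. In the same comparison 3 of 5 acinar probes were lower and 6 of 12 Kupffer cell and macrophage probes were higher. Of all probes 6.16% were lower and 6.59% higher there. High against low RFI pigs had 3 of 30 and 1 of 5 lower, against 4.5% of all probes, and 0 of 12 higher, against 5.09%. Under restriction within the high line 0 of 30 and 0 of 5 were lower, against 2.49% of all probes. In that comparison 3 of 12 Kupffer cell and macrophage probes were higher, against 2.82%. The probes counted came from only 7 stellate cell and fibroblast genes, 3 acinar genes and 4 Kupffer cell and macrophage genes. Probes of the same gene measure the same RNA, so these counts are not independent. No probe of these 3 lists passed an adjusted p of 0.05 in any comparison of single groups.

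In the comparison of both high line groups with low RFI pigs, where CPT2 was called, both probes of RGS5, a pericyte gene of the stellate list, were lower in the high line. They averaged -2.40 ± 0.60 and -2.67 ± 0.43 in the high line (SD, n = 16) and -1.21 ± 0.66 and -1.65 ± 0.63 in the low line (SD, n = 8). The differences were -1.19 (SE 0.26, limma adjusted p = 0.0331) and -1.02 (SE 0.22, limma adjusted p = 0.0319). They were 2 of the 30 probes of that list, where 0.573% of all probes passed. Both calls were lost without low RFI pig 1, 6, 7 or 8, with no filter, and within either scan day. The 9 hepatocyte markers had medians of 7.85, 7.71 and 7.71 in restricted high, high and low RFI pigs. At an unadjusted p under 0.05, 5 of their 38 probes were higher and 0 lower in restricted high than in low RFI pigs. Of all probes 6.59% were higher and 6.16% lower there. Between high and low RFI pigs 3 of the 38 were higher and 0 lower, against 5.09% and 4.5% of all probes. With both high line groups against low RFI pigs 1 of the 38 was called, against 0.573% of all probes. It belonged to CYP3A29, a cytochrome P450, and averaged 6.29 ± 0.28 in the high line and 5.62 ± 0.44 in the low line (SD, n = 16 and 8), a difference of 0.67 (SE 0.14, limma adjusted p = 0.0321). The CYP3A29 call was lost without low RFI pig 2, 3, 5 or 8 or high RFI pig 6. It was also lost with no filter, within either scan day, and without slide 3 (limma adjusted p = 0.119). The part of these markers in the CPT2 difference was not tested.

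**Figure D2:**
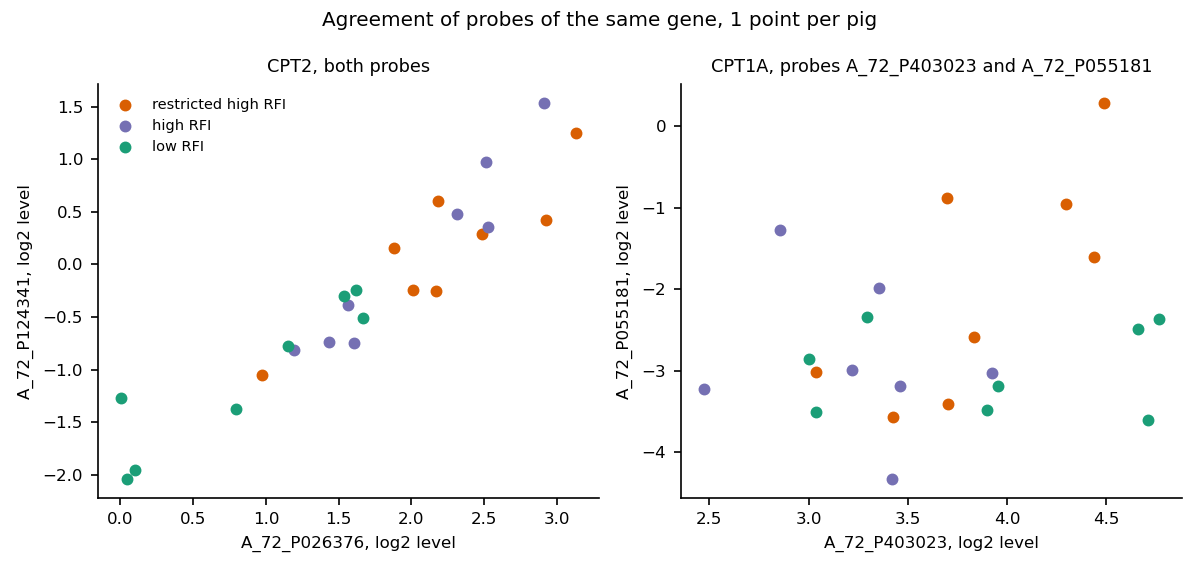
Level of a probe against another probe of the same gene (both axes log2 relative to the array's 75th percentile), 1 point per pig, coloured by group; CPT2 on the left and CPT1A on the right. The CPT2 probes rise together (r = 0.941), with 4 low RFI pigs at the lower left, while the CPT1A probes A_72_P403023 and A_72_P055181 do not (r = 0.282). That r is the lowest of the 21 CPT1A probe pairs, whose median r was 0.787.

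CPT1A, which commits fatty acids to oxidation, gave a different order, with the freely fed high line lowest. Its main probe A_72_P403023 ran from 3.04 to 4.49 in restricted high RFI pigs (median 3.77), from 2.47 to 3.93 in high RFI pigs (median 3.36) and from 3.001 to 4.77 in low RFI pigs (median 3.93). The spot of high RFI pig 1 was an outlier by the scanner software and was left out, so that group has 7 pigs here. The groups overlapped, yet 6 of 7 high RFI pigs lay below the low RFI mean and 7 of 8 restricted high RFI pigs lay above the high RFI mean.

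The CPT1A difference was -0.67 between high and low RFI pigs (SE 0.29, interval -1.27 to -0.07, limma adjusted p = 0.457). It was 0.62 between restricted high and high RFI pigs (SE 0.29, interval 0.02 to 1.22, limma adjusted p = 0.919) and -0.05 between restricted high and low RFI pigs (SE 0.28, interval -0.63 to 0.53). None of these passed. The last value did not keep its sign within scan days, at -0.70 within day 1 and 0.43 within day 2. High minus low RFI was -1.18 and -0.40 within these days, and restricted high minus high RFI was 0.49 and 0.83. Setting the 7 high RFI pigs against the 16 pigs at the low feeding level, a comparison also chosen after the values were seen, gave -0.65 (SE 0.25, limma adjusted p = 0.824), where 0.00674% of all probes passed.

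The 7 CPT1A probes did not all give the same picture. Restricted high minus high RFI was above 0 on all 7, from 0.41 to 0.86, and 2 of them had an unadjusted p under 0.05. Between high and low RFI pigs 6 of 7 lay below 0, from -0.67 to -0.19, and the exception was A_72_P055181 at 0.15. For restricted high against low RFI the 7 ranged from -0.13 to 1.01, with A_72_P055181 again the highest (SE 0.47, limma adjusted p = 0.373). That probe is the one named only by its description. It correlated with the main probe at r = 0.282 and with the other 5 CPT1A probes at 0.31 to 0.818, highest with A_72_P409728 and next with A_72_P443908 (0.741). The pairs without it correlated at 0.633 to 0.951. The dimmest, A_72_P409728, was well above background in 5 of 8 restricted high, 5 of 8 high and 6 of 8 low RFI pigs.

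**Figure D3:**
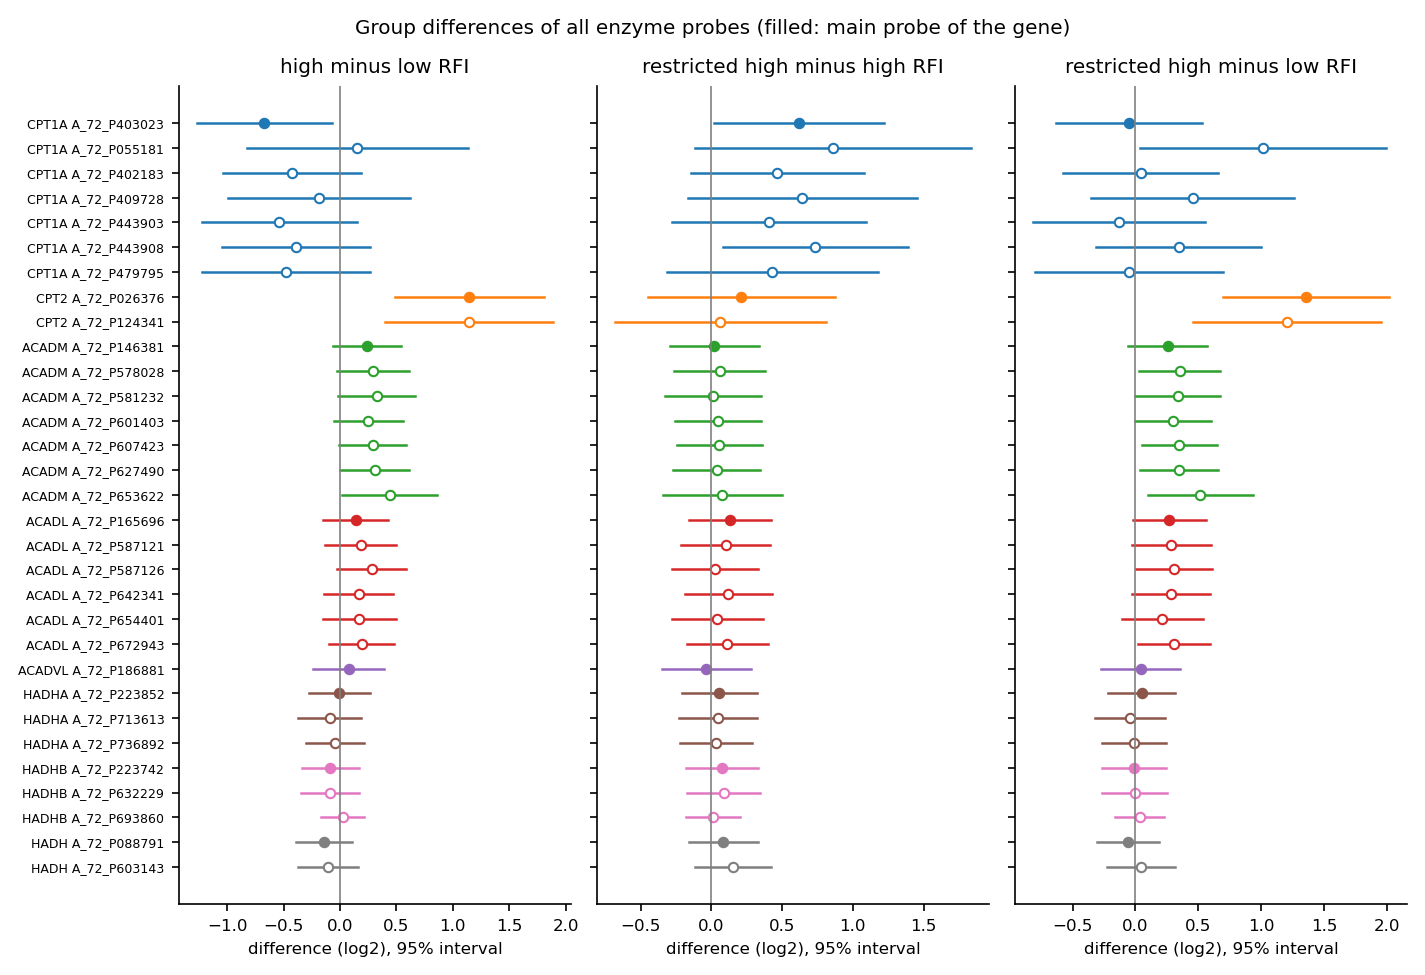
Differences between groups (x axis, log2) with 95% intervals for all 31 probes of the 8 enzymes (y axis), in the panels high minus low, restricted high minus high and restricted high minus low RFI; filled points are main probes. Both CPT2 intervals lie above 0 in the panels that involve low RFI pigs, the 7 ACADM and 6 ACADL probes lie slightly above 0 there, and the 7 CPT1A points lie above 0 in the middle panel.

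ACADM, the medium-chain acyl-CoA dehydrogenase, had small differences that ran the same way on all 7 probes. Its main probe A_72_P146381 ran from 4.86 to 5.82 in restricted high RFI pigs (median 5.33, n = 7, since 1 flagged spot of pig 4 was left out). It ran from 4.90 to 5.72 in high RFI pigs (median 5.29) and from 4.53 to 5.38 in low RFI pigs (median 5.13), so the groups overlapped widely. The difference was 0.24 between high and low RFI pigs (SE 0.15, interval -0.06 to 0.54), 0.26 between restricted high and low RFI pigs (SE 0.15, interval -0.06 to 0.57) and 0.02 between restricted high and high RFI pigs (SE 0.15, interval -0.29 to 0.33).

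Over the 7 ACADM probes the difference was 0.24 to 0.44 between high and low RFI pigs and 0.26 to 0.52 between restricted high and low RFI pigs. Within the high line it was 0.01 to 0.08. The largest value belonged to A_72_P653622, printed above, which ran from 3.47 to 4.33 in restricted high RFI pigs, from 3.27 to 4.26 in high RFI pigs and from 2.17 to 4.27 in low RFI pigs. Its smallest adjusted p in limma was 0.276, for restricted high against low RFI pigs. Low RFI pig 2 was the lowest of its group on all 7 ACADM probes. The probes correlated with each other at r = 0.836 to 0.988, so they count as 1 observation of the same RNA.

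ACADL, the long-chain acyl-CoA dehydrogenase, had the same order of group means, also with small differences. Its main probe A_72_P165696 averaged 3.17 ± 0.26 in restricted high, 3.03 ± 0.34 in high and 2.90 ± 0.25 in low RFI pigs (SD, n = 8 each). All 6 ACADL probes lay above 0 between high and low RFI pigs, at 0.14 to 0.28, and between restricted high and low RFI pigs, at 0.21 to 0.31. None passed the threshold, and the smallest limma adjusted p over these comparisons was 0.356. In human and rodent tissues ACADL and ACADVL share long-chain substrates.

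ACADVL, the very-long-chain acyl-CoA dehydrogenase of the inner membrane, had 1 probe and no difference beyond its error. It averaged 0.81 ± 0.36 in restricted high, 0.84 ± 0.11 in high and 0.76 ± 0.39 in low RFI pigs (SD, n = 8 each). The difference was 0.08 between high and low RFI pigs (interval -0.24 to 0.39) and 0.04 between restricted high and low RFI pigs (interval -0.27 to 0.36). High RFI pigs lay closer together, from 0.63 to 0.97, than restricted high RFI pigs, from 0.23 to 1.33, or low RFI pigs, from 0.22 to 1.33. This difference in spread was not tested.

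HADHA, the trifunctional protein subunit with enoyl-CoA hydratase and long-chain hydroxyacyl-CoA dehydrogenase activity, was at nearly the same level in the 3 groups. Its main probe A_72_P223852 averaged 2.61 ± 0.23 in restricted high, 2.55 ± 0.24 in high and 2.56 ± 0.31 in low RFI pigs (SD, n = 8 each). The difference between high and low RFI pigs was -0.0062, with a 95% interval from -0.27 to 0.26, and between restricted high and low RFI pigs it was 0.05 (interval -0.22 to 0.32). Of its 3 probes, A_72_P713613 followed the main probe across pigs (r = 0.918), whereas A_72_P736892 did not (r = -0.111). The sequences of A_72_P713613 and A_72_P736892 are printed above. Printed probes were required to have an open forward frame, so having one does not tell them apart. Which of the 3 probes measures the main HADHA transcript was not tested.

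HADHB, the subunit with thiolase activity, averaged 2.43 ± 0.24 in restricted high, 2.35 ± 0.23 in high and 2.44 ± 0.26 in low RFI pigs on its main probe A_72_P223742 (SD, n = 8 each). Its differences were -0.09 between high and low RFI pigs (interval -0.34 to 0.17), 0.08 between restricted high and high RFI pigs (interval -0.18 to 0.33) and -0.01 between restricted high and low RFI pigs (interval -0.26 to 0.24). The main probe and A_72_P632229, which overlap in 57 bases, correlated at r = 0.992. The non-overlapping probe A_72_P693860 correlated with them at 0.696 and 0.687.

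HADH, the mitochondrial hydroxyacyl-CoA dehydrogenase of shorter chains, averaged 5.06 ± 0.18 in restricted high, 4.98 ± 0.26 in high and 5.12 ± 0.26 in low RFI pigs on its main probe A_72_P088791 (SD, n = 8 each). The difference was -0.14 between high and low RFI pigs (interval -0.39 to 0.10), 0.09 between restricted high and high RFI pigs (interval -0.16 to 0.33) and -0.06 between restricted high and low RFI pigs (interval -0.30 to 0.19). The last value did not keep its sign within scan days, at 0.25 and -0.33. For HADHA, HADHB, HADH and ACADVL, no neighbours in the order of group means differed beyond their spread.

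Across the pigs, 3 of the 28 pairs of enzymes were correlated at an adjusted p under 0.05 (permutation test, 100000 resamples, two-sided, Benjamini-Hochberg over the 28 pairs). HADHA and HADHB had r = 0.727 (p = 3e-05, adjusted p = 0.00084) and rho = 0.724 (p = 6e-05, adjusted p = 0.00168, n = 24). In RefSeq's Sscrofa11.1 annotation these genes lie on either side of a single locus, LOC106509870. Of 29662 probes of other genes, HADHB's main probe ranked 5 in likeness to HADHA's, and HADHA's ranked 216 in likeness to HADHB's. The correlation was 0.733 with each group centred on its mean and 0.695 without the 2 pigs farthest from the median of HADHA. Within scan days 1 and 2 it was 0.845 and 0.598. All these values are for the main probes. The HADHA probe A_72_P736892, which did not follow the HADHA main probe across pigs, was not set against HADHB.

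HADHB and HADH had r = 0.653 (p = 0.00054, adjusted p = 0.00756) and rho = 0.613 (p = 0.00182, adjusted p = 0.0255, n = 24, permutation test). HADH's main probe ranked only 657 among 29662 probes of other genes in likeness to HADHB's. HADHB's ranked 1186 among 29663 in likeness to HADH's, so many other probes correlated at least as strongly. The correlation was 0.642 with groups centred, 0.576 and 0.716 within scan days, and 0.521 without the 2 pigs farthest from the median of HADHB, where its adjusted p was 0.0896. HADHA and HADH, in contrast, had r = 0.121. The difference between these correlations was not tested.

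CPT1A and ACADVL had r = 0.565 (p = 0.00503, adjusted p = 0.0469, n = 23, permutation test), but rho = 0.498 did not pass (p = 0.0165, adjusted p = 0.116). With groups centred r was 0.691 (permutation test, adjusted p = 0.00448). Without the 2 pigs farthest from the median of CPT1A it was 0.656 (adjusted p = 0.0207). The call was lost under quantile normalization (r = 0.551, adjusted p = 0.0611). It was also lost within scan days 1 and 2, where r was 0.544 and 0.581 (adjusted p = 0.221 and 0.422). CPT2 and ACADM had r = 0.508 (p = 0.0131, adjusted p = 0.0917, n = 23, permutation test), and r = 0.361 with groups centred. Over the other 24 pairs r ran from -0.27 for CPT1A and HADH to 0.47 for ACADVL and HADHA. All pairs share the array scaling and the same livers.

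**Figure D4:**
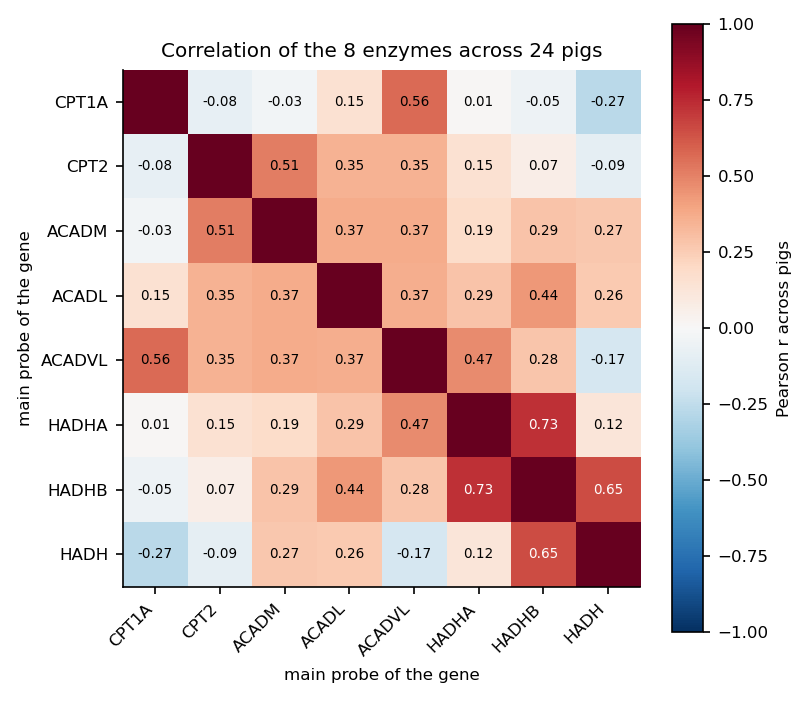
Pearson r across pigs (colour and number) for each pair of main probes of the 8 enzymes, on both axes; 22 to 24 pigs enter a pair. HADHB with HADHA (0.73) and with HADH (0.65) stand out, as does CPT1A with ACADVL (0.56).

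**Figure D5:**
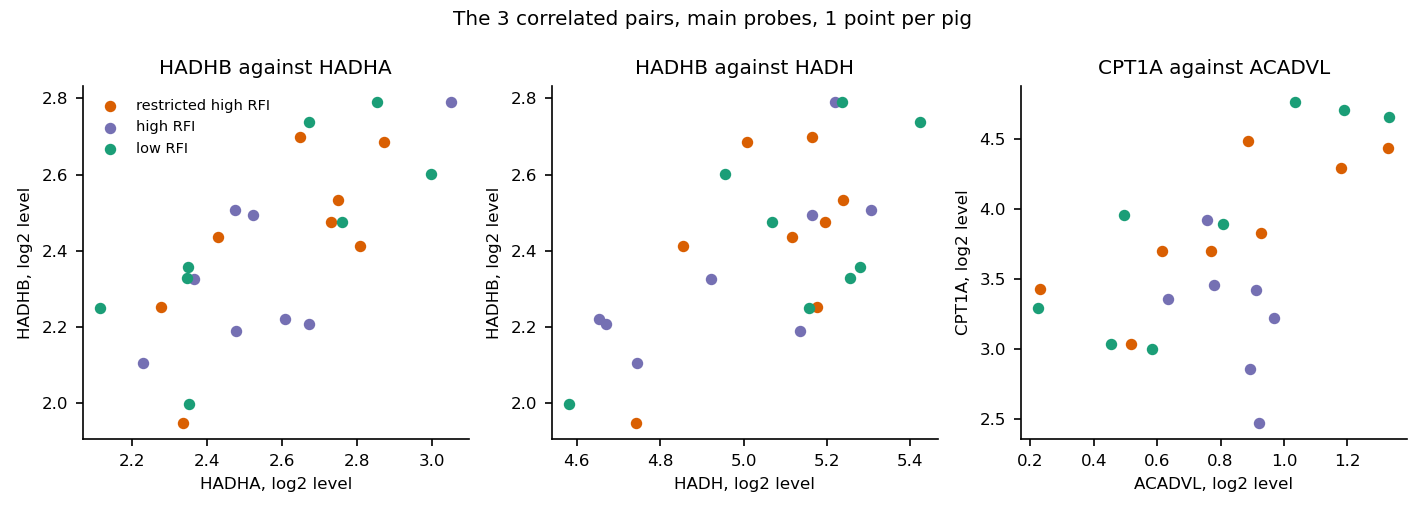
Main probe levels (both axes log2 relative to the array's 75th percentile) of HADHB against HADHA, HADHB against HADH, and CPT1A against ACADVL, 1 point per pig, coloured by group. In each panel pigs of all 3 groups are spread along the trend, with r of 0.727, 0.653 and 0.565.

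Among 4367 other genes with a symbol, the pattern most like the mean standardised level of the 8 enzymes was that of SLC27A2, an acyl-CoA synthetase and fatty acid transporter (r = 0.839, 24 pigs). It was followed by EPRS (0.761), COQ5 (0.755), the succinyl-CoA ligase subunit SUCLG1 (0.749) and SELENOK (0.747). Among those most like CPT2 were SARAF (0.735) and the endoplasmic reticulum chaperone HSPA5 (0.716). The genes most like CPT1A were the lipid droplet protein PLIN3 (0.73), pyruvate carboxylase PC (0.633) and PLPP5 (0.617). For ACADM they were F13A1 (0.715), the lipid droplet protein PLIN5 (0.71) and PREPL (0.70), for ACADL PGAM1 (0.749), the deiodinase DIO1 (0.744) and BCCIP (0.725), and for ACADVL ABCB4 (0.788), APOA5 (0.739) and GPD1 (0.715). For HADHA they were OTUB1 (0.662), RARA (0.66) and SLC27A2 (0.641), for HADHB LHFPL4 (0.861), the peroxisomal thiolase ACAA1 (0.844) and AP3B1 (0.836), and for HADH the chaperonin HSPD1 (0.901), the clotting factor F9 (0.901) and NTPCR (0.859). These are the highest of many correlations and are given as descriptions.

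Of 152 probes for the other genes of the pathway, in 7 lists, 1 passed an adjusted p of 0.05 in the 3 comparisons of single groups, in restricted high against low RFI pigs, where 0.276% of all probes did. It belonged to ACSL3, which joins long-chain fatty acids to coenzyme A. On probe A_72_P364238 ACSL3 averaged -0.01 ± 0.57 in restricted high and -1.37 ± 0.46 in low RFI pigs (SD, n = 8 each), a difference of 1.36 (SE 0.28, 2.57-fold, limma adjusted p = 0.0317), and the groups did not overlap, which held for 0.145% of all probes. The other 3 ACSL3 probes differed by 0.97 to 1.09 without passing (limma adjusted p 0.0875 to 0.132). Each of these 3 was brighter than the called probe, and on each the groups overlapped. The ACSL3 call was lost without low RFI pig 1, 5, 7 or 8 or restricted pig 2 or 4, and under normexp background correction, with a block for slide or for scan day, and with no filter.

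In the list of fatty acid activation and uptake, with 8 of 14 genes measured, the main probes were above 0 in 7 genes between high and low RFI pigs, among them ACSL3 (0.79 ± 0.28) and ACSL5 (0.20 ± 0.09, SE), while the carrier protein gene DBI was at -0.08 ± 0.14. With restricted high against high RFI, ACSL1 was at 0.26 ± 0.13, SLC27A2 at 0.22 ± 0.19, FABP1 at -0.30 ± 0.20 and ACSL4 at -0.28 ± 0.32 (SE). With restricted high against low RFI, ACSL3 was at 1.09 ± 0.28, ACSL1 at 0.35 ± 0.13, DBI at -0.13 ± 0.14 and FABP1 at -0.09 ± 0.20 (SE). None of these main probes passed the threshold.

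In the carnitine shuttle, with 7 of 9 genes measured and 0 of 15 probes past the threshold, the peroxisomal octanoyltransferase CROT differed by 0.74 ± 0.28 between restricted high and low RFI pigs (limma adjusted p = 0.26), by 0.55 ± 0.28 between restricted high and high RFI pigs and by 0.20 ± 0.28 between high and low RFI pigs (SE). ALDH9A1 was at -0.12 ± 0.06 between high and low and at 0.11 ± 0.06 between restricted high and high RFI pigs. CPT1C was at -0.19 ± 0.10 between high and low and at -0.13 ± 0.10 between restricted high and low RFI pigs. CRAT was at 0.06 ± 0.09 and 0.14 ± 0.09 in the same comparisons, and BBOX1 was at -0.08 ± 0.10 between restricted high and low RFI pigs.

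Other mitochondrial beta-oxidation genes, 9 of 15 measured, had 0 of 28 probes past the threshold in the comparisons of single groups. On its main probe ACADSB, a short branched-chain acyl-CoA dehydrogenase, was at 0.26 ± 0.11, DECR1 at 0.19 ± 0.12 and ETFDH at -0.12 ± 0.10 between high and low RFI pigs (SE). With restricted high against high RFI, ETFDH was at 0.14 ± 0.10, ETFA at 0.11 ± 0.09, ACADSB at -0.15 ± 0.11 and ECI2 at -0.22 ± 0.17. With restricted high against low RFI, ETFA was at 0.18 ± 0.09, ACADS at 0.12 ± 0.08 and ECI2 at -0.20 ± 0.17. Setting both high line groups against low RFI pigs called 2 of the 152 pathway probes, against 0.573% of all probes. These were ACSL3 A_72_P364238 (1.13, SE 0.24, limma adjusted p = 0.0287) and the dimmer ACADSB probe A_72_P250702 (0.75, SE 0.17, limma adjusted p = 0.0426). The main ACADSB probe was at 0.18 (SE 0.10, limma adjusted p = 0.438). This ACSL3 call was lost without low RFI pig 1, 7 or 8. It was also lost with no filter, under normexp background correction, with a block for slide, and without slide 3. Within scan days 1 and 2 the ACSL3 difference was 1.70 and 0.63 (limma adjusted p = 0.0468 and 0.503). The ACADSB call held in 7 of the 24 fits that left out 1 pig (limma adjusted p 0.0158 to 0.103), and under normexp background correction the difference was 0.05.

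Ketone body genes, 5 of 9 measured, had 0 of 12 probes past the threshold. The ketone body carrier SLC16A1 was at 0.21 ± 0.10 between restricted high and high and at 0.20 ± 0.10 between restricted high and low RFI pigs (SE). AACS was at 0.15 ± 0.29 between high and low, -0.43 ± 0.29 between restricted high and high, and -0.27 ± 0.29 between restricted high and low RFI pigs. OXCT1 and BDH2 were at 0.04 ± 0.13 and -0.06 ± 0.10 between high and low RFI pigs.

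Peroxisomal oxidation had 9 of 14 genes measured and 0 of 28 probes called. EHHADH (0.13 ± 0.09), CAT (0.10 ± 0.07), ACOX2 (-0.23 ± 0.13) and ACAA1 (-0.10 ± 0.13) were among its leading genes between high and low RFI pigs. HSD17B4 (0.09 ± 0.10), PEX11A (-0.11 ± 0.13) and ACOX3 (-0.09 ± 0.14) were among them between restricted high and high RFI pigs, and CAT (0.10 ± 0.07), PEX11A (-0.19 ± 0.13) and ACAA1 (-0.17 ± 0.13) between restricted high and low RFI pigs (all SE). Microsomal omega oxidation, with 4 of 7 genes and 0 of 9 probes past the threshold, had CYP4F2 at -0.54 ± 0.33, -0.48 ± 0.33 and -1.01 ± 0.33 in the 3 comparisons in the same order (limma adjusted p = 0.193 for the last). CYP4A24, CYP4A21 and ALDH3A2 all lay within -0.13 to 0.14.

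Regulators of fatty acid oxidation, 13 of 19 measured, had 0 of 34 probes past the threshold. With high against low RFI, the pyruvate dehydrogenase kinase PDK4 was at 0.38 ± 0.24, NCOR1 at 0.10 ± 0.08, SIRT1 at -0.24 ± 0.17 and RXRA at -0.24 ± 0.17 (SE). Between restricted high and high RFI pigs, LPIN1 was at 0.59 ± 0.36, the AMP-activated kinase subunit PRKAA2 at 0.17 ± 0.11, PPARA at -0.37 ± 0.29 and SIRT1 at -0.15 ± 0.17. Between restricted high and low RFI pigs, PPARGC1A was at 0.34 ± 0.29, PDK4 at 0.23 ± 0.24, SIRT1 at -0.39 ± 0.17 and PPARA, the fatty acid-sensing receptor that activates oxidation genes, at -0.48 ± 0.29.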

How the data were processed

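RNA of each liver (150 ng) was labelled with Cy3 and hybridised to a 1-colour Agilent array of 45220 features, 1417 of them controls, per the labels' protocols and the file headers. The deposited intensity values are the scanner software's processed signal (Feature Extraction 10.7.3.1, per the file headers). R 2.10.0 is listed in the submitters' processing notes. The authors' deposited table of log2 values (27564 features) held 30 of the 31 enzyme probes and served as an alternative.

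Spots that the software had marked as outliers were left out, log2 signals were set relative to the array's 75th percentile, and spots of a probe were averaged. A probe was kept if 6 or more arrays in 1 of the groups of 8 showed it well above background. Genes were named from the scanner output and RefSeq tables (Sscrofa11.1, names and neighbours only), giving 12343 probes a symbol, and no genome positions were used. Groups were compared in R 4.3.3 by limma's lmFit and eBayes (version 3.58.1, all 24 arrays, group as factor), with Benjamini-Hochberg adjustment over 29665 probes, after a test on simulated data. Correlations used scipy 1.17.1 and numpy 2.4.6. Each of the 6 slides and both scan days held pigs of every group.

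The enzymes, gene lists and comparisons were chosen with earlier results of these data known. Named pathway genes are those past the threshold and, in each comparison and list of 4 or more measured genes, the 2 with the smallest p in each direction by main probe. The genes most like the enzymes are the 5 with the highest r with their mean standardised level, and the 3 with the highest r with each enzyme. Some genes these rules name are not reported here. Alternatives covered background correction, normalization, filters, slide, scan day, pig number, array weights, only the pair of groups compared, and leaving out each pig.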

Additional observations from a re-analysis of the deposited data

Results flagged for a closer look

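Of 93 groups of pigs, 1 for each of the 31 probes in each group, 6 held a pig whose gap to its nearest neighbour was large relative to the range of the group, where chance marks about 1 in 20. Low RFI pig 2 was lowest for ACADM on 2 probes, at 4.53 against 4.99 for the next pig (A_72_P146381) and at 2.17 against 3.34 (A_72_P653622). High RFI pig 6 was lowest for CPT1A on 2 probes, at -1.0 against -0.35 (A_72_P402183) and at -3.8 against -2.81 (A_72_P479795). High RFI pig 7 was highest on the dim CPT1A probe A_72_P409728, at -4.08 against -4.95. High RFI pig 5 was lowest on the HADHA probe A_72_P736892, at 0.25 against 0.90.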

How the results depend on the processing

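In the 3 comparisons of single groups, no enzyme probe passed the threshold under any of the 14 alternatives other than leaving out 1 pig, nor in the F test under its 13. Leaving out 1 pig gave 0 to 1 enzyme probes between restricted high and low RFI pigs and in the F test, both the single call without restricted pig 1. For both high line groups against low RFI, the count of 1 enzyme probe became 0 with no filter, with slide as a block, within scan day 1 and within scan day 2 and without slide 3, and 0 to 2 on leaving out 1 pig. The pig numbers are shared between groups but were not taken to pair the pigs. Deviations of same-numbered pigs correlated above 0.1 in 5 of 8 pairs of restricted high and high RFI pigs (-0.036 to 0.424). This held in 2 of 8 pairs of restricted high and low (-0.169 to 0.12) and 1 of 8 of high and low RFI pigs (-0.186 to 0.318). No differently numbered pigs were set beside these, so the values cannot decide whether the numbers pair the pigs. With the number as a replicate block, both high line groups against low RFI gave 0 enzyme probes. The CPT2 difference was then 1.25 and its limma adjusted p 0.0534. The 1 probe called in the list of fatty acid activation and uptake became 0 under normexp, with no filter, with a block for slide or for scan day, within scan day 2 and without slide 3, and 0 to 1 without 1 pig. The lists of the carnitine shuttle and of other mitochondrial beta-oxidation gave 0 to 1. The count of 3 correlated pairs became 8 under normexp, 1 under quantile normalization, 1 within scan day 1, 0 within scan day 2 and 1 without slide 3. The cause of these shifts was not tested. The separate scan days, and the arrays without slide 3, hold fewer pigs. Over all probes, the alternatives gave 5 to 89 calls against 45 between high and low RFI pigs, 10 to 98 against 82 between restricted high and low RFI pigs, 0 to 1 against 0 within the high line, 15 to 279 against 170 for both high line groups, 0 to 2 against 2 for the feeding level and 7 to 150 against 61 in the F test. Within the comparisons of single groups the CPT2 difference from the low line was 0.99 to 1.53 over these alternatives. Among the 31 probes only the CPT1A probe A_72_P409728 was not well above background on every array.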
